A study of Homo sapiens with 23 samples.

Results

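RNA polymerase III (Pol III) reads a small set of short noncoding RNA genes, and 10 of them were followed here through the first day of TRPS1 depletion. The genes are RN7SK, RN7SL1, RN7SL2, RMRP, RPPH1, VTRNA1-1, VTRNA1-2, VTRNA1-3, RNY1 and RNY3. They were chosen by symbol, not by any measured value, though with earlier results of these data known. They serve as a contrast with genes of RNA polymerase II (Pol II). Each symbol matched exactly 1 of the 60605 gene rows by its Ensembl identifier in GENCODE release 44. Nascent transcription was measured by PRO-seq, in which engaged polymerases in permeabilized cells add a labeled nucleotide and the 3′ end of each nascent RNA is sequenced. The cells were T47D, a luminal breast cancer line that expresses estrogen receptor, and all came from 1 clone (Clone 28) with a degron tag on TRPS1, a GATA-family transcriptional repressor. The groups were DMSO vehicle (n = 4) and 50 nM dTAG-13 with 50 nM dTAGV-1, ligands that send the tagged protein to ubiquitin ligases, with 4 libraries at each of 0.5, 1, 2 and 4 h and 3 (replicates 2 to 4) at 24 h. The clone carries the tag in the DMSO group as well, and untagged cells were not analysed here.

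Pol III genes differ from mRNA genes in having short transcription units that end at a run of thymidines. RN7SK, RMRP, RPPH1 and the Y RNA genes are driven from upstream elements, whereas the vault RNA genes carry internal promoter boxes and the 7SL genes combine both. Their products are abundant housekeeping RNAs. 7SK RNA holds the elongation factor P-TEFb inactive, 7SL RNA is the scaffold of the signal recognition particle, RMRP and RPPH1 RNAs are the RNA parts of RNase MRP and RNase P, vault RNAs sit in vault particles and Y RNAs bind the Ro60 protein.

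Several of these genes have near-copies in the genome, which limits where a short read can be placed. RN7SL1 and RN7SL2 differ least. In a global alignment 295 of 300 positions were identical (98.3%), 4 were mismatched and 1 was a gap. Sequences are those of GENCODE release 44 transcripts and matched hg38 at the coordinates given here.

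The 3 vault RNA genes lie side by side on chromosome 5 and share 81.8% to 87.8% of aligned positions. The capitals mark the internal promoter box B word, GTTCGANNC, which was found on the sense strand of all 3 genes and of none of the other 7. It starts at base 67 of VTRNA1-1 and at base 57 of VTRNA1-2 and VTRNA1-3. The same word is on the sense strand of 96 (0.58%) of the 16641 annotated transcripts of 80 to 350 bases, and on either strand of 149 (0.9%) of them.
VTRNA1-1: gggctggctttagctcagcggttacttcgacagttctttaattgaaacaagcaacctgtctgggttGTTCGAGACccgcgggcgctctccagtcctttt
VTRNA1-2: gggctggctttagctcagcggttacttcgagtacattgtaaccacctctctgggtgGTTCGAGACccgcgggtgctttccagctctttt
VTRNA1-3: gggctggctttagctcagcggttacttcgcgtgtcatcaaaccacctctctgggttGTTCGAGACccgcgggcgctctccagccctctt

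The Y RNA genes RNY1 and RNY3 were 72.6% identical. RNY1 is shown because it is repeated except at its 5′ end, with capitals for bases that lie in no 30-base word unique to the gene in hg38. It had 3 such unique words of 84, all at the 5′ end, and RNY3 had 0 of 73.
RNY1: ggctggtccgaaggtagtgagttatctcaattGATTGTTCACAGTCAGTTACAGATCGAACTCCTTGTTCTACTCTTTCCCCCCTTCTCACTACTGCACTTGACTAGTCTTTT

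The genes fell into a repeated and a nearly unique class by this measure. All 304 words of 30 bases in RPPH1 occurred 1 time in the 25 chromosomes searched, as did 99.1% of those in RMRP and 88.6% to 98.3% of those in the vault RNA genes. The share was 9.4% for RN7SK, 4.1% for RN7SL2, 3.6% for RNY1 and 0 of 270 words for RN7SL1. The most repeated word of the 7SL genes occurred 43857 times, 7SL being the RNA from which Alu elements derive. The median word of RNY3 occurred 31 times and that of RN7SK 5 times. How the aligner's ties were settled is not given in the sources used here, so counts of RN7SK, the 7SL and the Y RNA genes may hold reads of copies, or miss their own. The other rows named as 7SK or its copies (300) held 78028 counts, of which 64442 lay in 1 row over RN7SK itself that is described further on, against 10852 for RN7SK. The other annotated rows named as 7SL copies (678 in the table) held 45468 counts in all libraries together, against 341189 for RN7SL1 and 259522 for RN7SL2. The other Y RNA rows (810) held 38825 counts, against 7743 for RNY1 and 18617 for RNY3.

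**Figure D1:**
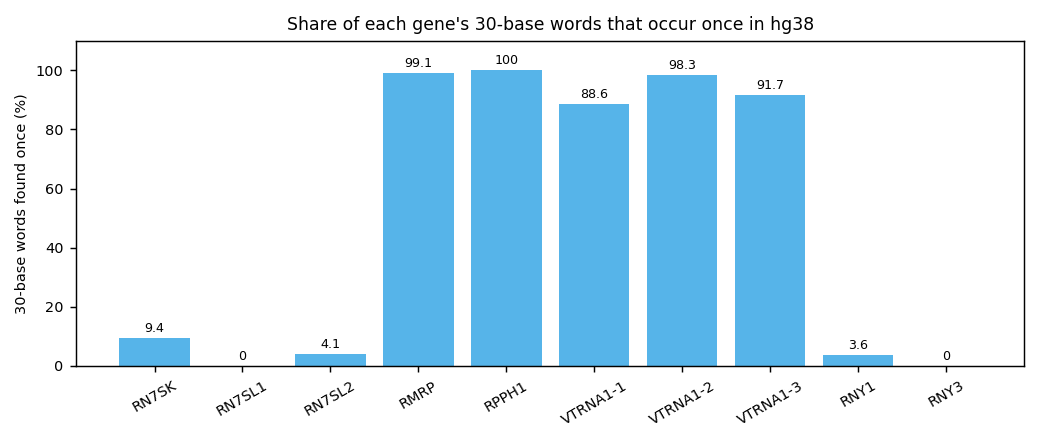
Bars give the share (%) of the 30-base words of each gene that occur 1 time in the chromosomes of hg38, both strands counted. RPPH1, RMRP and the vault RNA genes lie between 88.6% and 100%, and the 7SL genes, RN7SK and the Y RNA genes at 9.4% or less.

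Levels are given as CPM, a gene's counts scaled to library size and composition, and comparisons between genes as CPM per kilobase of gene. All 10 genes passed the low-count filter. RN7SL1 and RN7SL2 had the highest values, at a mean of 5416 and 4162 CPM per kb over the 23 libraries, followed by RNY3 at 1053 and RNY1 at 376. All of these belong to the repeated class, so their counts may hold reads of copies, or miss their own. RPPH1 (130), RN7SK (192), RMRP (206) and VTRNA1-2 (212) lay close together, and RN7SK, RMRP and VTRNA1-2 differed by less than the spread of any of them over libraries. The RN7SK row held 16.8% as many counts as a second, slightly longer row over the same gene, described further on. Their median levels were 31.3 and 208 CPM, so the rank of this gene depends on the row used. VTRNA1-1 (62.6) and VTRNA1-3 (25.4) were lowest, and VTRNA1-3 had between 7 and 35 counts per library. Together the 10 genes held between 0.142% and 0.62% of a library's counts. RN7SL1 and RN7SL2 made up most of this share, as the other 8 genes held between 0.0118% and 0.132%. The share had a median of 0.265% in DMSO (range 0.166% to 0.562%) and of 0.295%, 0.366% and 0.312% in the 0.5, 1 and 2 h groups. It was 0.283% in the 4 h group (0.142% to 0.62%) and 0.221% in the 24 h group (0.142% to 0.457%), so every dTAG group overlapped DMSO. For the library with the largest share, replicate 1 at 4 h, the exact binomial 95% interval was 0.613% to 0.627%, which covers counting error only and is far narrower than the spread between libraries.

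No gene of the 10 passed the threshold at any time of TRPS1 depletion. In edgeR's quasi-likelihood test at an FDR of 0.1, 0 of 10 were called at 0.5 h, where 0.476% of all 26057 genes tested were called, and 0 of 10 were called at 1 h (1.25% of all genes). The count was also 0 at 2 h (background 0.733%), 4 h (0.833%) and 24 h (0.863%). With so few genes called in the whole table, a count of 0 among 10 does not set them apart from other genes. Over the 50 tests the smallest unadjusted p was 0.133 and the adjusted p-values from edgeR ran from 0.841 to 1, with 0 of 50 unadjusted p-values under 0.05. With the replicate number as a block, 0 of 10 were again called at each time (background 2.48%, 3.25%, 2.43%, 2.49% and 2.65% in order of time), with a smallest unadjusted p of 0.0633, a smallest edgeR adjusted p of 0.414 and 0 of 50 under 0.05. DESeq2 called 0 of those to which it gave an adjusted p, which leaves out VTRNA1-3 at all times and VTRNA1-1 from 0.5 to 4 h. The test over the time course from DMSO to 4 h called 0 of 10 without the block (background 1.33%) and 0 of 10 with it (4.6%). The smallest p in that test was that of RMRP with the block, 0.0227, with an edgeR adjusted p of 0.224. Without replicate 1, and with no block, the smallest edgeR adjusted p of the 10 genes in that test was 0.104. Replicates were treated and harvested at different times of 1 day, and the replicate number is taken to pair the samples.

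**Figure D2:**
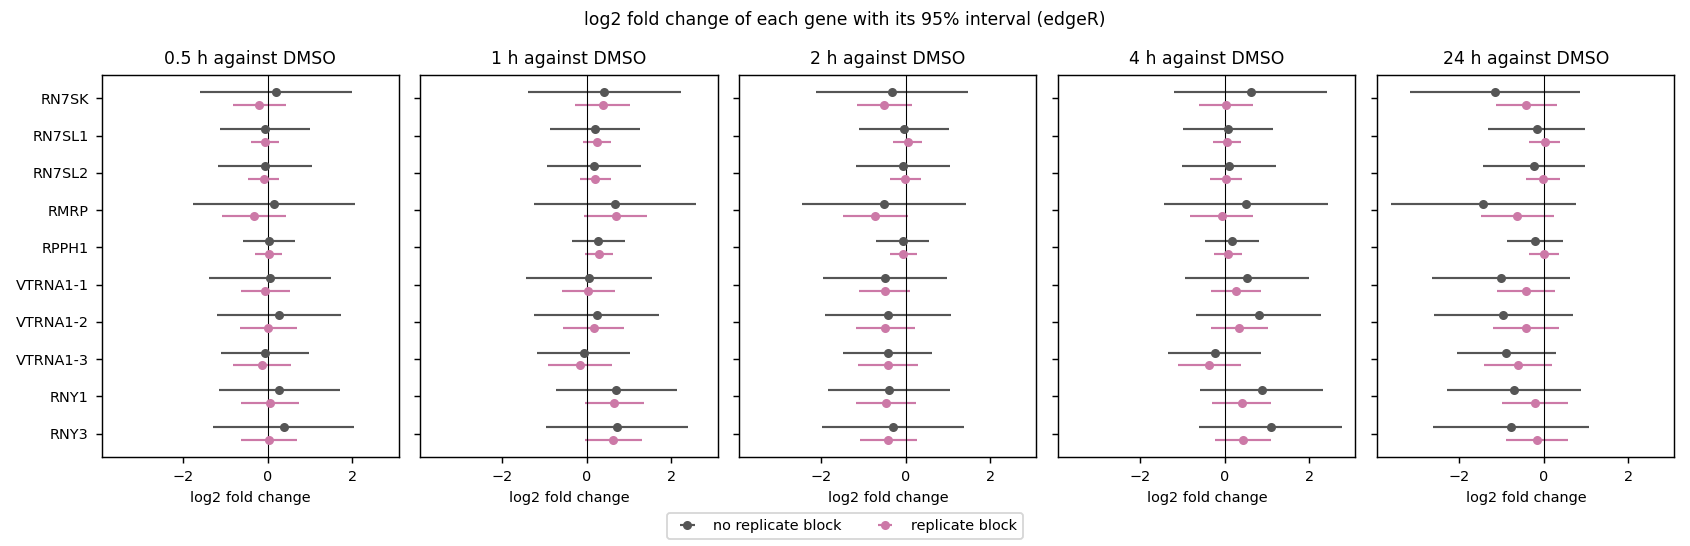
Points give the log2 fold change of each gene against DMSO at each dTAG time and bars its 95% interval from edgeR, without (gray) and with (pink) the replicate number as a block. All intervals of both fits include 0, and those of the blocked fit are narrower.

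The fold changes of these genes had wide errors. Standard errors of the log2 fold changes lay between 0.30 and 1.05 without the block, against medians of 0.12 to 0.13 over all genes, and between 0.16 and 0.42 with it. Fold changes inside the intervals remain compatible with these libraries, and the absence of calls does not show that the genes were unaffected. The narrowest intervals were those of RPPH1 and the 7SL genes in the blocked fit. At 24 h with the block the log2 fold change was 0.01 (95% interval -0.35 to 0.36) for RPPH1, 0.03 (-0.34 to 0.39) for RN7SL1 and -0.01 (-0.41 to 0.39) for RN7SL2. The widest was that of RMRP, -0.62 (-1.49 to 0.25).

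RN7SK (ENSG00000283293; hg38, chromosome 6, 52995621 to 52995948, plus strand; 328 bases) encodes 7SK RNA. Its level was 105, 63.4, 26.1 and 36.8 CPM in DMSO replicates 1 to 4. The 0.5 h libraries had 195, 33.9, 22.1 and 19.9 CPM and the 1 h libraries 146, 77.9, 23.7 and 62 CPM. The 2 h libraries had 114, 25.3, 19.9 and 28.1 CPM, the 4 h libraries 293, 28.3, 17.5 and 31.3 CPM and the 24 h libraries (replicates 2 to 4) 31.9, 15.4 and 30.4 CPM. Every replicate 1 library, DMSO included, was above every other library, while the dTAG and DMSO groups overlapped at every time. The highest library, replicate 1 at 4 h, was 19-fold above the lowest, replicate 3 at 24 h. The log2 fold change in the unblocked fit ran from -1.16 ± 0.96 (SE) at 24 h to 0.61 ± 0.87 at 4 h. With the block those values were -0.41 ± 0.35 and 0.04 ± 0.31. The dTAG library was above its same-numbered DMSO library in 6 of 19 pairs, which reuse the 4 DMSO libraries and are not independent.

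RN7SL1 (ENSG00000276168; chromosome 14, 49586580 to 49586878, plus strand) and RN7SL2 (ENSG00000274012; chromosome 14, 49862550 to 49862849, minus strand) encode 7SL RNA. RN7SL1 was at 1731, 2942, 934 and 803 CPM in DMSO replicates 1 to 4. The 0.5 h libraries had 2221, 2229, 846 and 832 CPM and the 1 h libraries 2213, 2806, 853 and 1486 CPM. The 2 h libraries had 2057, 2103, 923 and 1176 CPM, the 4 h libraries 3063, 1968, 736 and 1034 CPM and the 24 h libraries (replicates 2 to 4) 2413, 725 and 1153 CPM. Here replicates 1 and 2 were both high and replicates 3 and 4 both low at each time, unlike RN7SK, for which replicate 1 stood alone. RN7SL2 ran from 533 to 2653 CPM, with replicates 1 and 2 again above replicates 3 and 4 at each time. Its ratio to RN7SL1 stayed between 0.719 and 0.866 in the 23 libraries, a 1.2-fold range, while the ratio of RN7SL1 to RN7SK moved 7.94-fold, from 10.5 to 83.1. Both members of the pair share nearly all their sequence, so their values are not independent. Their log2 fold changes lay between -0.23 and 0.20 at all times without the block, with standard errors of 0.51 to 0.58.

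RMRP (ENSG00000277027; chromosome 9, 35657754 to 35658017, minus strand) encodes the RNA of RNase MRP, which acts in ribosomal RNA processing. Its level was 93.8, 52.4, 19.6 and 35.1 CPM in DMSO. The 0.5 h libraries had 177, 24.6, 15.8 and 11.9 CPM and the 1 h libraries 141, 65.4, 22.7 and 89.9 CPM. The 2 h libraries had 90, 18.8, 12.5 and 21.8 CPM, the 4 h libraries 245, 20.9, 13.9 and 22.7 CPM and the 24 h libraries (replicates 2 to 4) 25.9, 10.8 and 19.8 CPM. RMRP had the largest range of the 10 genes, 22.6-fold. All 4 libraries at 1 h were above, and all 4 at 2 h below, their same-numbered DMSO library, with blocked log2 fold changes of 0.68 ± 0.36 (edgeR adjusted p = 0.428) and -0.71 ± 0.37 (adjusted p = 0.494). The pair furthest apart at 1 h was replicate 4, at 89.9 CPM, where the other replicate 4 libraries were between 11.9 and 35.1 CPM.

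RPPH1 (ENSG00000277209; chromosome 14, 20343075 to 20343407, minus strand) encodes the RNA of RNase P, which trims the 5′ ends of tRNA precursors. Its level was 49.7, 49.9, 30.3 and 35.1 CPM in DMSO. The 0.5 h libraries had 61.6, 42, 33.7 and 32.3 CPM and the 1 h libraries 60.3, 49.6, 39.4 and 50.2 CPM. The 2 h libraries had 48, 40.6, 32.7 and 35.1 CPM, the 4 h libraries 99.6, 34.3, 32 and 28.8 CPM and the 24 h libraries 40.4, 33.6 and 33 CPM. Apart from replicate 1 at 4 h, at 99.6 CPM, the libraries lay between 28.8 and 61.6 CPM. Its highest library was 3.46-fold above its lowest, the smallest such ratio of the 10 genes. This holds for the RPPH1 row only. A longer row that contains RPPH1, described further on, ran from 58.3 to 539 CPM. Its unblocked log2 fold changes lay from -0.20 to 0.28, with standard errors of 0.30 to 0.32.

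The vault RNA genes VTRNA1-1 (ENSG00000199990; chromosome 5, 140711275 to 140711373), VTRNA1-2 (ENSG00000202111; 140718925 to 140719013) and VTRNA1-3 (ENSG00000202515; 140726158 to 140726246), all on the plus strand, differed in level among themselves. VTRNA1-2, the highest of the 3 per length, was at 24.8, 17.6, 10.2 and 14.8 CPM in DMSO. The 0.5 h libraries had 50.4, 15.9, 8.48 and 8.91 CPM and the 1 h libraries 33.1, 27.2, 8.22 and 10.7 CPM. The 2 h libraries had 23.6, 10.2, 7.7 and 9.5 CPM, the 4 h libraries 96.9, 8.79, 9.55 and 12.2 CPM and the 24 h libraries 10.9, 6.91 and 8.3 CPM. The dTAG library was below its same-numbered DMSO library in 15 of 19 pairs for VTRNA1-2, 14 of 19 for VTRNA1-3 and 13 of 19 for VTRNA1-1. The 19 pairs reuse the 4 DMSO libraries and are not independent, and such counts were not made over all genes. VTRNA1-1 was at 10.7, 5.35, 4.15 and 4.03 CPM in DMSO and 3.21, 1.71 and 4.07 CPM at 24 h. VTRNA1-3 was at 2.85, 2.61, 2.51 and 1.91 CPM in DMSO and 1.6, 1.11 and 1.36 CPM at 24 h, which is the pair of groups with the smallest unadjusted p without the block (0.133, edgeR adjusted p = 0.841). Its 24 h libraries, with 15, 20 and 18 counts, were all below its DMSO libraries in CPM. The share of all genes separated in this way was not determined. VTRNA1-3 was not called at 24 h, when 0.863% of all genes were called without the block. Its log2 fold change there was -0.88 ± 0.56, or -0.60 ± 0.39 with the block (edgeR adjusted p = 0.637). At 2 h the blocked log2 fold changes of the 3 genes were between -0.50 and -0.41 and none was called, with lower values in 4 of 4 pairs for VTRNA1-1 and VTRNA1-2 and 3 of 4 for VTRNA1-3.

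The Y RNA genes RNY1 (ENSG00000201098; chromosome 7, 148987136 to 148987248, minus strand) and RNY3 (ENSG00000202354; 148983755 to 148983856, plus strand) lie 3280 bases apart. RNY3 was at 144, 87, 43.4 and 59.5 CPM in DMSO. The 0.5 h libraries had 291, 60.1, 40.3 and 46.9 CPM and the 1 h libraries 248, 159, 33.8 and 111 CPM. The 2 h libraries had 146, 43.5, 35.2 and 48.7 CPM, the 4 h libraries 572, 53.9, 36.5 and 64 CPM and the 24 h libraries 56, 29.2 and 61.4 CPM. RNY1 followed it, between 16 and 202 CPM, with a ratio of RNY3 to RNY1 counts between 1.82 and 2.89. The largest positive fold change without the block was that of RNY3 at 4 h, 1.09 ± 0.81 (edgeR adjusted p = 0.925), and it rested on replicate 1 at 4 h. Without that library, left out after the data were seen, it was -0.69. At 1 h the blocked values were 0.63 ± 0.32 for RNY3 and 0.65 ± 0.34 for RNY1, with the smallest adjusted p-values of all blocked tests (0.414 and 0.422), and 3 of 4 pairs were higher for each.

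**Figure D3:**
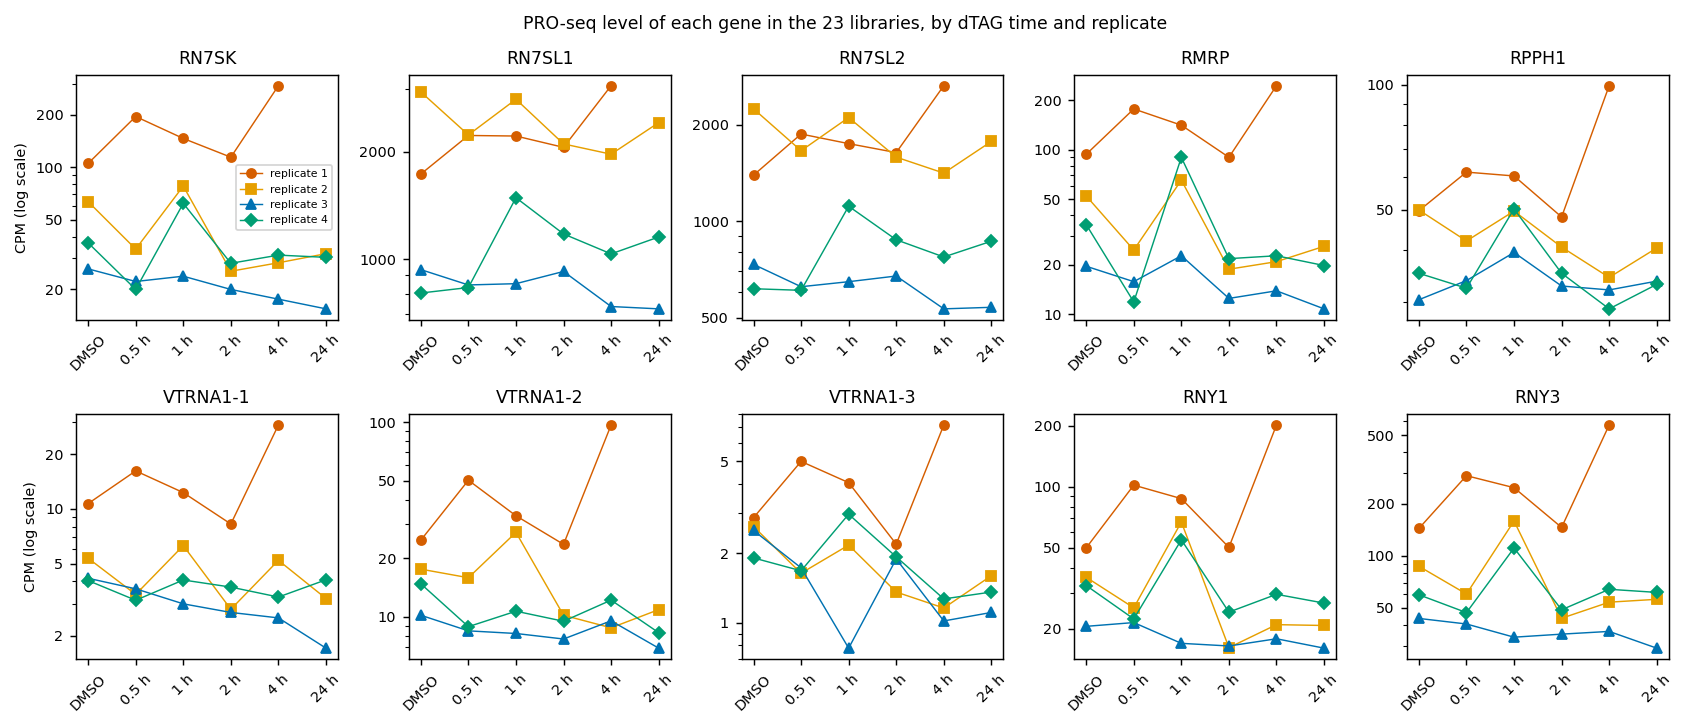
Each panel plots 1 gene in CPM (log axis) against dTAG time, with a line for each replicate number. Replicate 1 (circles) has no 24 h library and holds the highest value of every gene at 4 h, and for the 7SL genes replicate 2 (squares) is also high.

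Most of the spread in these genes lay between replicate numbers. In the F-test of the replicate number in the blocked fit, added after the data were seen, all 10 were called, with edgeR adjusted p-values from 1.65e-08 for RN7SL1 to 0.00862 for VTRNA1-3, where 34.7% of all genes were called. Replicate 3 was below replicate 1 by log2 values from -0.87 for RPPH1 to -3.17 for RMRP. RN7SK was at 170 ± 76.9 CPM (SD, n = 5) in replicate 1 and 20.8 ± 3.97 CPM (n = 6) in replicate 3, and RMRP at 149 ± 64.5 and 15.9 ± 4.48 CPM. The difference between the highest and lowest replicate was larger than in 92.5% to 99.1% of all genes. Replicate number held 55% to 88.5% of the sum of squares of log2 CPM and dTAG time 2.9% to 19%, against medians of 23.9% and 22.5% over all genes. The shares were computed separately. Such a share is positive even without an effect and grows with the number of groups, and there were more dTAG times than replicate numbers. The all-gene median for dTAG time is thus no measure of an effect. The 24 h group lacks replicate 1, so the share of dTAG time also holds replicate differences. The biological coefficient of variation of RN7SK was 0.787 without and 0.283 with the block, against medians of 0.086 and 0.051 over all genes.

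Within replicates the libraries still differed. Replicate 1 at 4 h was the highest library for all 10 genes, between 2.06 times (RN7SL1) and 10.8 times (RMRP) the median library. The same library had the fewest counts (4408544), the largest share of counts in mitochondrial genes (6.5%, range 1.73% to 6.5%) and the lowest composition factor (0.858). Replicate 1 libraries had 4408544 to 7886241 counts and replicate 3 libraries 8789399 to 17571616, so depth and replicate number moved together with the levels of these genes, and their part was not tested. The 24 h group has no replicate 1 library, and its negative fold changes for all 10 genes without the block (median -0.82) became 8 of 10 negative (median -0.30) with it. At 1 h 9 of 10 were positive in both fits (median 0.26) and at 2 h all 10 without and 9 of 10 with the block were negative (median -0.44 with the block), beside all-gene medians between 0.00 and 0.01. These contrasts share their DMSO libraries, and the genes move together over libraries.

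Other short RNA genes were also lower in replicate 3 than in replicate 1, whereas the genes for the Pol III machinery had medians near 0. Of 14 further Pol III genes that passed the filter (16 of 18 listed were in the table), among them RNY4, RN7SL3, U6 and 5S rRNA genes, all 14 were called for replicate number, with a median replicate 3 minus replicate 1 log2 difference of -2.73. Several of the 14 are copies of one another or of the 7SL genes, such as RN7SL3, 97.7% identical to RN7SL1. They may share reads and are not independent. Of 26 small RNA genes read by Pol II (spliceosomal U1, U2, U4, U5, U11 and U12 genes, SNORD3A, TERC and Cajal body RNAs), all 26 were called, with a median of -1.49. Replicate 3 was below replicate 1 in 25 of these 26 and in all 14 of the former. Of the 18 Pol III subunit genes 7 were called, of 19 factor genes 8 and of 25 protein partner genes 10, near the background of 34.7%, with medians of 0.02, 0.05 and 0.01. The median over all genes was 0.01. Small RNA genes of Pol II held 0.151% to 0.548% of a library's counts and were highest in the same replicate.

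**Figure D4:**
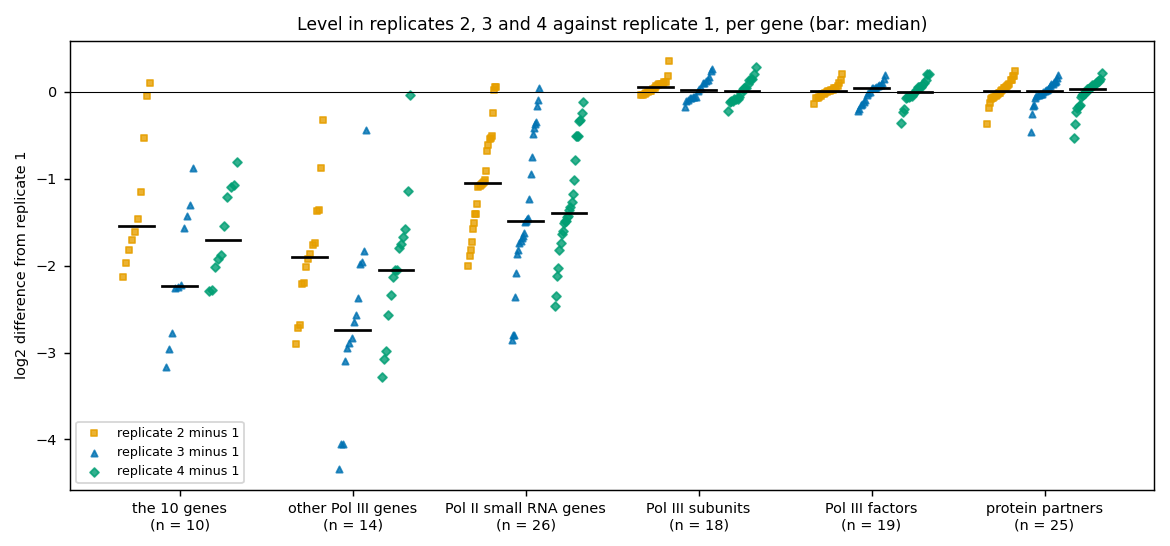
Points are genes, plotted as the log2 difference of replicate 2, 3 or 4 from replicate 1 in the blocked fit, and bars are medians. The 10 genes, other Pol III genes and Pol II small RNA genes lie mostly below 0 (replicate 3 medians -2.24, -2.73 and -1.49), and the protein-coding lists lie around 0.

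A shift of a few bases in the annotated ends went with a large difference in counts. A second row of the table, 7SK (ENSG00000202198), covers chromosome 6, 52995620 to 52995950, on the same strand. It adds 1 base before and 2 bases after RN7SK, and its last 40 bases are shown with the added bases in capitals.
7SK: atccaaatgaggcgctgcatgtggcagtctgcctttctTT
The 7SK row held 64442 counts over the 23 libraries against 10852 for RN7SK, 5.94 times as many. The ratio was between 4.34 and 7.34 in single libraries. If every read of RN7SK was also counted in the 7SK row, 83.2% of the counts of that row lay outside RN7SK. The 7SK row moved like RN7SK, from 113 CPM in replicate 3 at 24 h to 1648 CPM in replicate 1 at 4 h, was not called at any time with or without the block (smallest edgeR adjusted p 0.906 and 0.545), and differed by -2.76 between replicates 3 and 1. The RefSeq record (GRCh38.p14) ends 3 bases beyond RN7SK, 4 beyond RMRP and 4 beyond RPPH1, and at or within 1 base of the other 7 genes. RN7SK held 16.8% as many counts as the 7SK row, and how much the longer ends of RMRP and RPPH1 would add was not tested.

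RPPH1 and RN7SL2 also lie inside longer rows on their own strand. The lncRNA row ENSG00000259001 (chromosome 14, 20343048 to 20343685) contains RPPH1 and held 24054 counts against 9338, a ratio that ran from 1.77 to 5.42 over libraries, with the highest value in replicate 1 at 4 h. Its replicate 3 was below replicate 1 by a log2 value of -1.95, where that of RPPH1 was -0.87. The lncRNA row ENSG00000282885 (chromosome 14, 49861176 to 49868192) contains RN7SL2 and held 685489 counts against 259522, a ratio between 1.59 and 4.32. Neither row was called at any time (smallest edgeR adjusted p 0.935 and 0.927 without, 0.67 and 0.727 with the block). Reads in such rows may count for more than 1 gene. RN7SL1 lies inside RPS29 on the opposite strand, a ribosomal protein gene whose row held a mean of 2559 counts per library against 14834 for RN7SL1, so reads of RN7SL1 were not counted into RPS29.

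**Figure D5:**
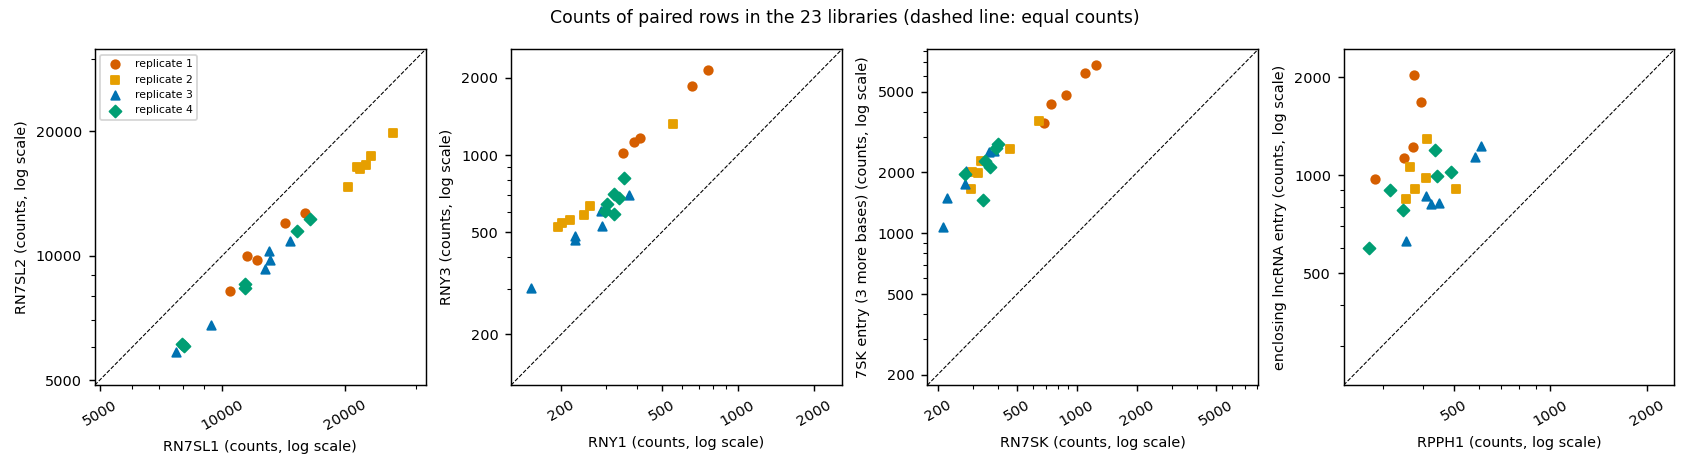
Each point is 1 library, with counts of a row against those of its pair (log axes) and a dashed line for equal counts. RN7SL2 stays at 0.719 to 0.866 times RN7SL1, RNY3 above RNY1, the 7SK row at 4.34 to 7.34 times RN7SK, and the row around RPPH1 at 1.77 to 5.42 times RPPH1.

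The genes within 5 kb that do not overlap the 10 were mostly not called. They are GSTA4 (317 bases from RN7SK), CCDC107 and ARHGEF39 (273 and 858 bases from RMRP), PARP2 (208 bases from RPPH1), ZMAT2 (4589 bases from VTRNA1-1) and the lncRNA genes GHET1, ENSG00000278002 and ENSG00000254846. Of those that passed the filter, GHET1, 279 bases from RNY1 on the other strand, was the only one called. This was at 2 h only and with the block only, where 2.43% of all genes were called (edgeR adjusted p 0.0441, against 0.146 without the block). GSTA4, CCDC107, ARHGEF39, PARP2 and ZMAT2 had replicate 3 minus replicate 1 log2 differences between -0.24 and 0.14, of which that of CCDC107 (-0.24) came with a call for replicate number (edgeR adjusted p = 0.0861). ENSG00000278002 was also called for replicate number (adjusted p = 0.0403 in edgeR), at 0.28. Of all genes 34.7% were called for replicate number. The lncRNA ENSG00000292256, which spans the vault RNA genes in GENCODE, is not among the rows used here.

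The genes for Pol III itself and for the partners of these RNAs were called in 1 case after TRPS1 depletion. POLR3B, the second largest Pol III subunit, was the only one of 18 subunit genes called, at 1 h only, when 1.25% of all genes were called without and 3.25% with the block. It was at 111, 110, 114 and 102 CPM in DMSO and 126, 120, 132 and 123 CPM at 1 h, without overlap, a log2 fold change of 0.20 ± 0.05 (edgeR adjusted p = 0.0931, 0.0145 with the block). Of the 19 factor genes (TFIIIA, TFIIIB, TFIIIC and SNAPc subunits, their activators and the repressor MAF1) and the 25 protein partners (among them LARP7, MEPCE, SRP and RNase P subunits, RO60 and MVP), 0 were called at any time with or without the block, beside backgrounds of 0.476% to 1.25% and 2.43% to 3.25%. Such counts are near the background. Their medians lay between -0.04 and 0.04 at all times, beside all-gene medians up to 0.01. Of the 14 other Pol III genes 0 were called, with unblocked medians of 0.58 (1 h) and -1.01 (24 h) that were 0.65 and -0.38 with the block.

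Among 26 Pol II small RNA genes 1 was called at each of 0.5, 1 and 24 h with the block, where 2.48%, 3.25% and 2.65% of all genes were called, and 0 without it, so the counts do not set these genes apart. RNU4ATAC, a minor spliceosome RNA, was at 88, 91.8, 85.2 and 79.6 CPM in DMSO and 116, 108, 96 and 86.4 CPM at 0.5 h, higher in each of the 4 pairs, with a log2 fold change of 0.23 ± 0.05 (edgeR adjusted p = 0.0236, 0.695 without the block). SCARNA5, a Cajal body RNA, rose at 1 h by 1.40 ± 0.38 (edgeR adjusted p = 0.0574, 0.512 without the block) from levels of 0.137 to 1.57 CPM in DMSO. RNU5F-1, a U5 RNA, was lower at 24 h by -0.25 ± 0.07 (edgeR adjusted p = 0.0681, 0.562 without the block). The median log2 fold change of the 26 genes with the block ran from -0.25 at 24 h to 0.07 at 0.5 h.

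The last and first time points were compared directly. Of the 10 genes 0 differed between 24 h and 0.5 h without the block (background 1.99%) or with it (6.34%). RMRP was at 18.8 ± 7.57 CPM (SD, n = 3) at 24 h and 57.3 ± 79.9 CPM (n = 4) at 0.5 h, a log2 difference of -1.57 ± 1.05 (SE; edgeR adjusted p = 0.644) that was -0.30 ± 0.42 with the block.

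The genes whose pattern over the 23 libraries was most like that of the 10 were noncoding rows or had no name. By Pearson r with the mean centered profile, a description over libraries that share replicates and depth, they were the lncRNA ENSG00000287050 on chromosome 6 (r = 0.988), ENSG00000269900, which has no name in the annotation used (0.987), 7SK (0.985), the pseudogene ENSG00000283041 (0.984) and LINC00324 (0.98). Without replicate 1 these values were 0.947 to 0.968 over 18 libraries. The 7SK row lies over RN7SK itself, so they can share reads and the likeness is not that of a separate gene. ENSG00000269900 has no position in the annotation used, so whether it overlaps any of the 10 was not determined. The 3 most like RN7SK were ENSG00000269900 (0.993), the snoRNA SNORD14C (0.991) and ENSG00000287050 (0.991). Among the 10, RN7SK and RMRP correlated at 0.985 and RNY1 and RNY3 at 0.986, while RN7SL1 and VTRNA1-3 were least alike, at 0.562, and 0.341 without replicate 1.

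Total counts were 4408544 to 17571616 per library with a median of 9768427, and replicates of a group differed by 1.55 to 38.8 in chi-square per degree of freedom, so none was a repeat of another. TRPS1, whose protein and not gene the ligands act on, was transcribed at 7997 to 11979 CPM and thus gives no check of depletion. It was not called without the block (edgeR adjusted p from 0.288) and was higher at all 5 times with it. The 7 luminal markers summed to 5569 to 7028 CPM per library and the 6 markers of other cell types to 14.1 to 20.8 CPM, with CD3E, KRT5 and KRT14 at 0 in some libraries. Of the luminal markers GATA3 was called lower from 0.5 to 4 h in both fits, by -0.22 ± 0.03 at 0.5 h (edgeR adjusted p = 0.00112). With the block only, PGR was called lower at 1, 2, 4 and 24 h and KRT8 at 1 h.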

How the data were processed

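PRO-seq libraries of 23 samples were used, and each gene's value is a raw count of reads in a table the authors deposited. Before deposit the authors trimmed adapters with cutadapt 1.8.1, removed duplicate molecules by molecular identifier and reads of ribosomal DNA, aligned to hg38 with Bowtie2 2.4.4 and handled alignments with SAMtools 1.9 (versions from the submitters' processing notes). The annotation behind the rows, the treatment of reads with several equal alignments and the strand setting of the counting are not given in the sources used here. A read that fits several copies may thus be placed at any of them.

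Of 60605 rows, 60463 matched GENCODE release 44 by Ensembl identifier. Counts were filtered with filterByExpr (minimum count 10, minimum total 15), which left 26057 genes (25255 in the 20 libraries from DMSO to 4 h) holding 99.5% to 99.6% of counts, scaled by TMM and tested with edgeR 4.0.16 (limma 3.58.1, R 4.3.3) in glmQLFit and glmQLFTest over all 23 libraries, with Benjamini-Hochberg adjustment over all genes tested and a threshold of 0.1. The scripts were tested on simulated data. Alternatives were DESeq2 1.42.0, other scalings, no filter, libraries of 2 groups only, each replicate number left out and the replicate number as a block. Per the labels, the replicates were treated and collected at different times of 1 day, and same-numbered samples are taken to share that time, so the numbers pair the samples. Deviations from group means correlated at a mean of 0.287 within numbers (55 pairs of libraries) and -0.0825 between numbers (165 pairs). Each sample was plated separately from 1 clone, so p-values measure the spread between dishes of that clone handled on 1 day.

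The members and gene lists were chosen with earlier results of these data known. All 10 genes are named, with list genes called in either fit (at most 3 per list and direction), genes within 5 kb, the 5 genes most like the mean and the 3 most like RN7SK, and TRPS1. The F-test of replicate number and the fit without replicate 1 at 4 h were added after the data were seen. Words of 30 bases were searched in the 25 chromosomes of hg38 on both strands. Intervals for shares are exact (Clopper-Pearson, 95%) and cover counting error only. Some sequences are not reported here.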

Additional observations from a re-analysis of the deposited data

Results flagged for a closer look

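Replicate 1 stood apart from the other 3 replicates in 18 of the 50 combinations of gene and group with 4 libraries, always on the high side. The rule was a gap to the nearest library above the 95% critical value of Dixon's test, which sets about 1 in 20 normal samples apart. All of these fell on replicate 1 at 0.5, 2 or 4 h. The genes share libraries and move together over them, so 18 of 50 cannot be set against that rate. The 24 h group has 3 libraries and was not tested. RN7SK was at 195 CPM in replicate 1 at 0.5 h (others 19.9 to 33.9), 114 CPM at 2 h (19.9 to 28.1) and 293 CPM at 4 h (17.5 to 31.3). RMRP was at 177 CPM at 0.5 h (11.9 to 24.6), 90 CPM at 2 h (12.5 to 21.8) and 245 CPM at 4 h (13.9 to 22.7). RPPH1 stood apart at 4 h only, at 99.6 CPM (28.8 to 34.3).

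For the vault and Y RNA genes it was again replicate 1, in up to 3 groups. VTRNA1-1 was at 16.2 CPM in replicate 1 at 0.5 h (others 3.14 to 3.63) and 29 CPM at 4 h (2.51 to 5.21), VTRNA1-2 at 23.6 CPM at 2 h (7.7 to 10.2) and 96.9 CPM at 4 h (8.79 to 12.2), and VTRNA1-3 at 4.99 CPM at 0.5 h (1.64 to 1.73) and 7.17 CPM at 4 h (1.02 to 1.27). RNY1 was at 102 CPM at 0.5 h (21.4 to 25.3) and 202 CPM at 4 h (17.8 to 29.5). RNY3 was at 291 CPM at 0.5 h (40.3 to 60.1), 146 CPM at 2 h (35.2 to 48.7) and 572 CPM at 4 h (36.5 to 64). The 7SL genes did not stand apart in any group.

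Summed shares of a library's counts stood apart in 9 of 25 combinations of share and group, again in replicate 1. The share of all 10 genes together and that of mitochondrial genes did not stand apart in any group. The 8 genes without the 7SL genes held 0.0823% of counts at 0.5 h (others 0.0149% to 0.0215%), 0.0473% at 2 h and 0.132% at 4 h. The other Pol III genes held 0.0782% at 0.5 h, 0.0521% at 2 h and 0.108% at 4 h. Small RNA genes of Pol II held 0.548% at 0.5 h (others 0.181% to 0.225%), 0.374% at 2 h and 0.518% at 4 h.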

How the results depend on the processing

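None of the 10 genes was called against DMSO under any alternative that gave an adjusted p (591 of 600 tests, smallest 0.236). The other 9 are DESeq2 results without an adjusted p, for VTRNA1-3 at all 5 times and VTRNA1-1 from 0.5 to 4 h. Over the time course 0 of 10 were called under any alternative, with a smallest adjusted p of 0.104 without replicate 1. With the replicate number as a block, the direction turned for 7 of 50 log2 fold changes: RN7SK (-0.197), RMRP (-0.323) and VTRNA1-1 (-0.059) at 0.5 h, RN7SL1 (0.048) at 2 h, RMRP (-0.068) at 4 h, and RN7SL1 (0.026) and RPPH1 (0.005) at 24 h. Scaling by total counts only turned 1, RN7SL1 at 4 h (-0.002). The other alternatives on all libraries turned none. Over all genes the block gave 645, 846, 634, 650 and 691 calls from 0.5 to 24 h and 1162 over the time course. Total counts only gave 30, 142, 81, 87 and 110 (time course 93), no filter 47, 163, 114, 127 and 126 (178), and libraries of 2 groups only 2, 69, 79, 38 and 106. DESeq2 gave 261 at 0.5 h, 344 at 24 h and 557 over the time course. The causes of these shifts were not tested.

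Without replicate 1, 16 of the 50 log2 fold changes turned, without replicate 2 the number was 8, without replicate 3 it was 3 and without replicate 4 it was 0. Leaving out the 4 h replicate 1 library alone, an alternative added after the data were seen, turned 9. At 4 h the lowest value below is without a replicate 1 library. At 0.5 h these ran from -0.718 to 0.479 for RN7SK, -0.263 to 0.168 for RN7SL1, -0.316 to 0.177 for RN7SL2, -1.024 to 0.437 for RMRP, -0.08 to 0.137 for RPPH1, -0.387 to 0.224 for VTRNA1-1, -0.366 to 0.481 for VTRNA1-2, -0.469 to 0.11 for VTRNA1-3, -0.349 to 0.475 for RNY1 and -0.356 to 0.603 for RNY3. At 1 h VTRNA1-3 ran from -0.348 to 0.293, and at 2 h RN7SL1 from -0.158 to 0.258, RN7SL2 from -0.2 to 0.214 and RPPH1 from -0.129 to 0.008. At 4 h they ran from -1.157 to 0.988 for RN7SK, -0.369 to 0.476 for RN7SL1, -0.465 to 0.525 for RN7SL2, -1.373 to 0.877 for RMRP, -0.372 to 0.424 for RPPH1, -0.701 to 0.746 for VTRNA1-1, -0.708 to 1.174 for VTRNA1-2, -1.094 to 0.106 for VTRNA1-3, -0.599 to 1.221 for RNY1 and -0.692 to 1.425 for RNY3. Over all genes they gave 14 to 147 calls at 0.5 h, 75 to 363 at 1 h, 43 to 222 at 2 h, 64 to 204 at 4 h, 38 to 275 at 24 h and 38 to 325 over the time course, the lowest count at each of these being without replicate 3 or replicate 4. Without RN7SL1 and RN7SL2 the other 8 genes held a mean of 0.0291% of counts in DMSO and 0.0334%, 0.0417%, 0.0236%, 0.0456% and 0.0167% from 0.5 to 24 h. The 4 h mean rests on replicate 1 (0.132%, others 0.0133% to 0.0193%), and the medians were 0.0272% in DMSO and 0.0186% at 4 h. The 0.5 h mean likewise rests on replicate 1 (0.0823%, median 0.0182%). VTRNA1-3 had the fewest counts, 7 to 35 a library.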
